A study of Mus musculus with 2 samples.

Results

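The set described here holds 10 eosinophil lineage regulators chosen by name: Gata1, Gata2, Zfpm1, Cebpa, Cebpb, Cebpd, Cebpe, Spi1 (listed under its older symbol Sfpi1), Trib1 and Id2. All 10 were found among 23456 genes, and each had 1 row of 31295 transcript rows. Eosinophils were sorted by flow cytometry from enzyme-digested colons of naive wild-type C57BL6 mice, with no treatment and no other group. The 2 samples form 1 group, and each was made into 3 technical libraries by CEL-Seq, which counts tags near the 3′ end of messenger RNA. No source used here gives the mouse ages, the sort gate or the number of cells. The table holds 1 read total and 1 RPKM per transcript, both taken here as means over all 6 libraries. RPKM is reads per kilobase of transcript per 1000000 reads. With 1 pooled value per gene there is no SD, no value per sample and no test, and the levels below are a description. Each interval is an exact 95% Poisson interval of the reads over the 6 libraries and covers counting error only. For RPKM it was scaled by the RPKM per read. Reads of shallower libraries weigh more in a mean RPKM, so intervals of RPKM and of RPKM ratios are approximate and somewhat too narrow. In sorted bulk RNA, fewer cells of a type and less RNA per cell cannot be told apart.

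Eosinophils arise in bone marrow from a progenitor in which a few transcription factors act together. PU.1, the product of Spi1, is an ETS-family factor needed by all myeloid lineages. GATA-1 is required for eosinophil formation in mice, and C/EBP factors, which bind DNA as leucine zipper dimers, work beside it. FOG-1, the product of Zfpm1, binds GATA factors through their N-terminal zinc finger and represses eosinophil fate in chicken progenitors. Trib1 is a pseudokinase that brings C/EBP alpha to a ubiquitin ligase for breakdown. Id2 is a helix-loop-helix protein without a DNA-binding part that captures E proteins.

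The members include close relatives whose DNA-binding parts are alike, and these coding stretches show how alike. Whether tags could tell the genes apart depends on their 3′ ends, compared below. The most alike 90-base coding stretch of the 4 C/EBP genes lies in the basic region that contacts DNA. It is given 5′ to 3′ from GENCODE M21 transcripts, with bases shared by all 4 genes in capitals, 64 of 90.
Cebpa: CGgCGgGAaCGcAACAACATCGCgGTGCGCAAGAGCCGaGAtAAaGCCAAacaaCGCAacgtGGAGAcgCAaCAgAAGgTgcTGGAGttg
Cebpb: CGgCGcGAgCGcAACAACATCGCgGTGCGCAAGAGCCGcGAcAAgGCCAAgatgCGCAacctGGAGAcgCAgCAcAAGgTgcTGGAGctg
Cebpd: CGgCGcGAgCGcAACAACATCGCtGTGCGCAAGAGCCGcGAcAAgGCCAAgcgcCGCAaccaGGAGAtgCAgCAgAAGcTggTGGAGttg
Cebpe: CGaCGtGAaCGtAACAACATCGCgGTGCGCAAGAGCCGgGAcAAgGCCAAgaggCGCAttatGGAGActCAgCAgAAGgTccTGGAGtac
These stretches lie within 1 exon each, at chr7:35120283-35120372, chr2:167689703-167689792 and chr16:15887913-15888002 on the plus strand and chr14:54710668-54710757 on the minus strand (GRCm38). Identity between pairs ranged from 78.9% for Cebpd with Cebpe to 88.9% for Cebpb with Cebpd.

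The matching stretch of the GATA genes is the N-terminal zinc finger, the part that FOG-1 binds. Capitals mark the 74 of 90 bases that both genes share.
Gata1: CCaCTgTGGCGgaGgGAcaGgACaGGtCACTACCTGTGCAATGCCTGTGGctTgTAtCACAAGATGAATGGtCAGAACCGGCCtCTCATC
Gata2: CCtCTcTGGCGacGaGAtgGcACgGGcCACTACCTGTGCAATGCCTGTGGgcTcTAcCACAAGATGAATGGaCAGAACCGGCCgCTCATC
They lie at chrX:7961942-7962031 on the minus strand and chr6:88202457-88202546 on the plus strand. The longest run of bases shared by whole transcripts was 29 for Cebpa with Cebpb and 23 for Gata1 with Gata2. At the 3′ end, where CEL-Seq tags fall, none of the 466 words of 35 bases in the last 500 bases of each member up to the end of its row occurred in a transcript of another gene, read on the transcript's own strand. No source used here gives the read length of the libraries.

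All 10 members had an RPKM of 1 or more, against 31.0% of all genes. Their median RPKM was 17.9, above 94.3% of genes (91.6% by reads without length) and above 91.8% of the 16204 genes above 0. Over all genes the median was 0.186, and over those above 0 it was 0.750. The median of the members rests on a gap in the list: without the pseudokinase Trib1 and the inhibitor Id2 it was 5.78. The members spanned a 1769-fold range of RPKM and a 761-fold range of reads, and Spi1 alone held 81.7% of their summed RPKM and 74.7% of their 71309 reads.

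**Figure D1:**
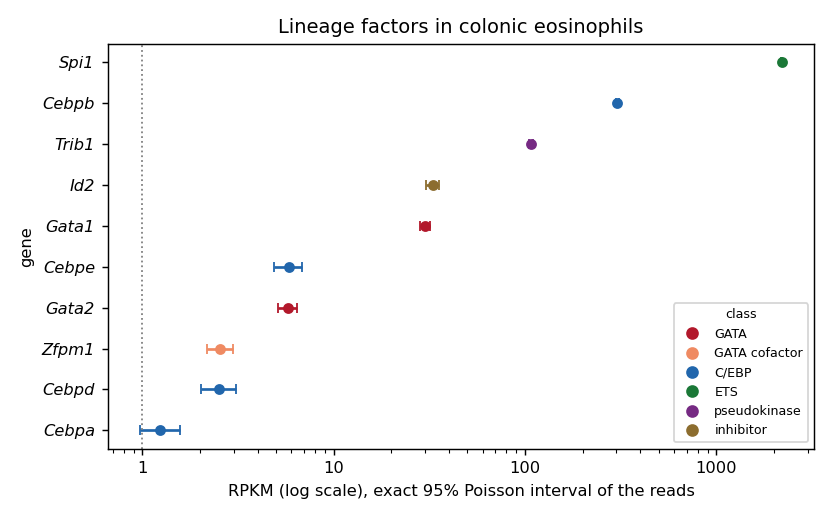
RPKM of the 10 genes on a log axis, with bars for the exact 95% Poisson interval of the reads over 6 libraries and colours for the class of protein. Spi1 stands at 2196, Cebpb at 304.5 and Trib1 at 107, and the lowest gene, Cebpa, at 1.24 with an interval that crosses 1 (dotted line).

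Spi1 was the most abundant member, with an RPKM of 2196 (2177 to 2214) from 53245 reads. It ranked 12 of 23456 genes by RPKM and 15 by reads without length. Its RPKM was 7.21 times that of Cebpb (7.03 to 7.40), the next member, and 73.3 times that of Gata1 (69.1 to 77.8), whereas in reads it was 47.8 times Gata1 (45.0 to 50.7). The row, NM_011355, covers chr2:91096797-91115756 on the plus strand. Among 13 ETS-family genes examined, Spi1 held 93.0% of the summed RPKM and 82.9% of the reads. The next ETS gene was Ets2, a broadly expressed factor downstream of growth signals, at 139 (136 to 142). Spi1 exceeded it 15.8-fold in RPKM and 6.27-fold in reads. The others were lower than these: Elf4 had an RPKM of 7.65, rank 2520 of 23456 genes, Elf1 4.90 and Elk3 4.02. Of the 12 ETS genes other than Spi1, 9 were at 1 or above, against 31.0% of all genes. Spic, the ETS factor of iron-recycling macrophages, was listed at 0.

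Cebpb, an activator induced by cytokine signals in many cells, dominated the C/EBP family. Its RPKM was 304.5 (297 to 312) from 6940 reads, rank 97 of all genes. Cebpe, which drives late granulocyte maturation, followed among the 4 C/EBP members at 5.81 (4.88 to 6.86) from 138 reads. Cebpd, an acute-phase factor, had 2.50 (2.01 to 3.08) from 90 reads. Its row ends 1486 bases short of the GENCODE transcript, so any tags from that further end are missing from its level. Cebpa, the factor of early granulocyte commitment, had 1.24 (0.968 to 1.57) from 70 reads, so its interval included an RPKM of 1. The Cebpb level was thus 52.4 times that of Cebpe (44.3 to 62.5) and 245 times that of Cebpa (194 to 315). In reads, without length, Cebpb was 50.3 times Cebpe (42.5 to 60.0) and 99.1 times Cebpa (78.4 to 127).

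The 3 other genes listed here with the C/EBP family were also far below Cebpb. Ddit3, a stress-induced partner that blocks DNA binding by its relatives, had an RPKM of 8.43 (7.08 to 9.95), above that of Cebpe. Per read, without length, the Ddit3 to Cebpe ratio was 1.01 (0.790 to 1.28), so their order depended on the scaling. Cebpg, a short partner protein, had 2.17 and Cebpz, a nucleolar protein of similar name, 2.06. Across these 7 genes Cebpb held 93.2% of the RPKM and 90.1% of the reads (89.4% to 90.8%, exact Clopper-Pearson interval). Both shares leave out any Cebpd tags beyond the end of its row, which the interval does not cover. C/EBP alpha and beta each exist as long and short proteins made from the same messenger RNA, which RNA levels cannot tell apart.

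Gata1 had an RPKM of 30.0 (28.2 to 31.8) from 1115 reads, rank 916 of all genes. Gata2, a factor of early progenitors, mast cells and basophils, had 5.75 (5.13 to 6.43) from 307 reads. Gata1 was 5.21 times higher per length (4.59 to 5.93) and 3.63 times higher in reads (3.20 to 4.13). The 4 remaining GATA genes were lower, with Gata6 at 1.09 and Gata3, the factor of type 2 lymphocytes, at 0.381 from 19 reads. Gata4 was at 0.0237 from 1 read, and Gata5 was listed at 0. Zfpm1, the GATA cofactor, had an RPKM of 2.55 (2.18 to 2.96) from 170 reads, and its paralogue Zfpm2 was listed at 0. Gata1 therefore exceeded Zfpm1 11.8-fold in RPKM and 6.56-fold in reads (5.58 to 7.75).

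Trib1 had an RPKM of 107 (105 to 110) from 8540 reads, rank 278 by RPKM and 120 by reads. It was nearly the whole of the tribbles family: Trib3, induced by stress, had an RPKM of 0.308 from 9 reads and Trib2 0.164 from 13 reads. Trib1 held 99.7% of the reads of the 3 genes. Trib1 was 86.5 times Cebpa in RPKM (68.4 to 111) and 122 times in reads. This ratio compares RNA, and breakdown of the C/EBP alpha protein was not tested.

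Id2 had an RPKM of 32.9 (30.5 to 35.4) from 694 reads, rank 847. It was not the highest of its family. Id1 had 51.4 (47.8 to 55.2), which was 1.57 times Id2 per length (1.41 to 1.74) but 1.08 times in reads (0.976 to 1.20). Id3 had an RPKM of 6.66, and Id4 was listed at 0. The E proteins that ID proteins capture were lower, with Tcf12 at 3.67, Tcf4 at 1.15 and Tcf3 at 0.353. Each value is that of the row with the most reads, of 5 rows for Tcf12, 2 for Tcf4 and 8 for Tcf3. Reads found only on their other rows are left out. Id2 exceeded Tcf12 8.94-fold in RPKM (7.72 to 10.4) and 2.80-fold in reads (2.42 to 3.25). These are RNA levels, and capture of E proteins was not tested.

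**Figure D2:**
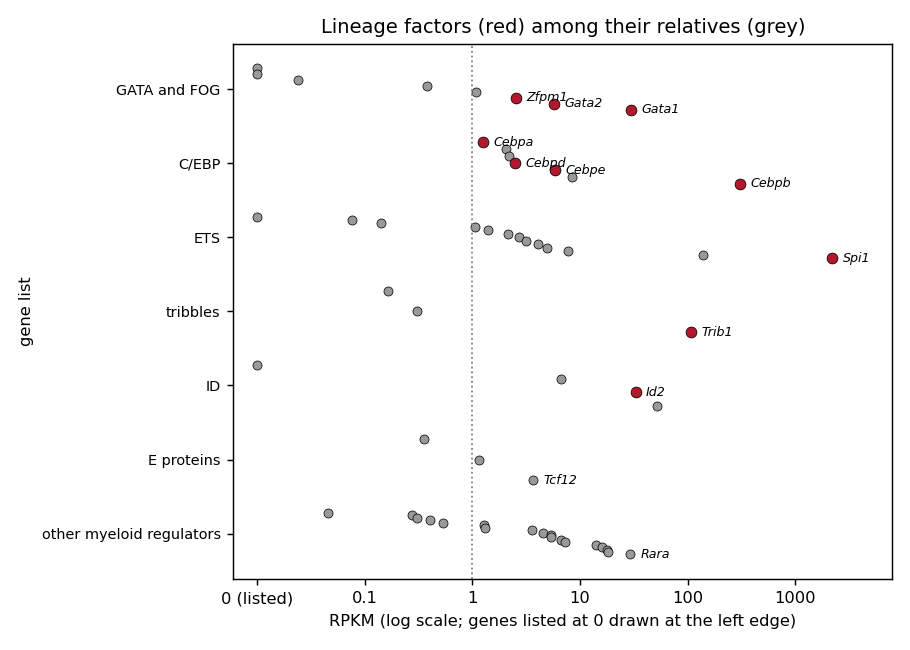
RPKM on a log axis of the lineage factors (red) among relatives and partners (grey), with genes listed at 0 drawn at the left edge and a dotted line at 1. Spi1, Cebpb, Gata1 and Trib1 lie to the right of every relative in their row, whereas Id2 lies left of Id1.

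By RPKM the order ran from Spi1 through Cebpb, Trib1, Id2, Gata1, Cebpe, Gata2, Zfpm1 and Cebpd to Cebpa. Neighbouring members in 3 places did not differ beyond counting error. The RPKM of Id2 was 1.10 times that of Gata1 (0.996 to 1.21), that of Cebpe 1.01 times that of Gata2 (0.820 to 1.24), and that of Zfpm1 1.02 times that of Cebpd (0.783 to 1.33). CEL-Seq yields tags from near the 3′ end whatever the transcript length, so RPKM lowers long transcripts. On RPM, the reads of a gene per 1000000 reads on all genes with no division by length, 41 of the 45 pairs of members kept their order. Trib1, with a transcript of 4026 bases, then stood above Cebpb, with 1504 bases, at 1110 against 902 RPM. Gata1 stood above Id2 at 145 against 90.2 RPM. Gata2 at 39.9 and Zfpm1 at 22.1 RPM stood above Cebpe at 17.9. Spi1 stayed highest at 6922 RPM, and Cebpd and Cebpa lowest at 11.7 and 9.10. The place of Cebpd leaves out any tags beyond the end of its row.

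**Figure D3:**
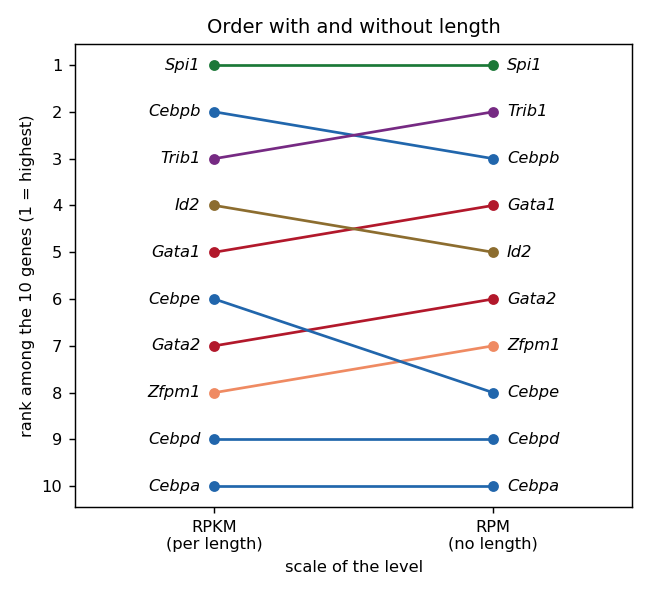
Rank of each of the 10 genes (1 is the highest) by RPKM on the left and by RPM on the right, with lines that join a gene's ranks. Trib1 passes Cebpb, Gata1 passes Id2, and Gata2 and Zfpm1 pass Cebpe, while Spi1, Cebpd and Cebpa keep their places.

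The pooled values still hold a trace of the libraries. A transcript with 1 read in all gives the depth of the library that held it, from its RPKM and length. The depths found were 1892486, 2070937, 2100580, 2396564, 4343108 and 4752358 reads, and 82.3% of 1432 such rows lay within 0.01% of one of them. The labels and headers do not say which sample each library belongs to. For a gene with more reads, the ratio of its read total to its RPKM bounds the share of its reads that came from the 2 deepest libraries, which held 51.8% of all depth. A gene at the same level in every library would show that share.

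For Cebpb the share lay between 10.3% and 44.5%, below the share of depth. The exact binomial interval around the upper bound, 43.3% to 45.6%, also lay below it. At that upper bound, the level of Cebpb relative to depth in the 2 deepest libraries was 0.744 times its level in the other 4 (0.710 to 0.781). Trib1 lay on the other side, between 54.9% and 75.4%, with an interval of 53.9% to 56.0% around the lower bound. At that lower bound, its level in the 2 deepest libraries was 1.13 times that in the others (1.09 to 1.18). Cebpa also lay above, between 66.0% and 83.1%, with an interval of 53.4% to 76.7% around the lower bound from its 70 reads. Gata1 (53.5% to 74.4%) and Zfpm1 (54.6% to 75.1%) had both bounds above the share of depth, but their counting intervals, 50.5% to 56.4% and 46.9% to 62.3%, included it. Both bounds of Cebpd, 19.4% and 50.7%, were below it, with an interval that included it. The bounds of Spi1, Cebpe, Gata2 and Id2 enclosed the share of depth. The same ratio over 7101 genes with at least 50 reads gives the background: Cebpb stood above 4.93% of them and Trib1 above 77.6%, so a value as far from the middle as that of Trib1 was common. The bounds also rest on transcript lengths inferred here, which for genes with introns, Trib1 among them, may be wrong. Whether the bounds separate the samples or only technical libraries was not tested.

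**Figure D4:**
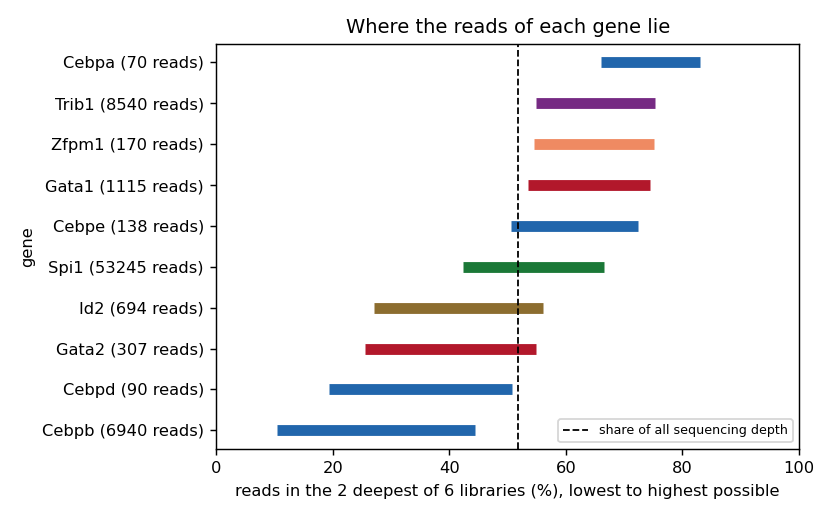
Lowest to highest possible percentage of each gene's reads in the 2 deepest of 6 libraries, with the dashed line at the 51.8% of depth these libraries hold. The bar of Cebpb ends at 44.5%, left of the line, and those of Trib1, Cebpa, Gata1 and Zfpm1 start to its right.

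The deposited rows give no isoforms of these genes: GENCODE M21 lists 28 transcripts for the 10 members and RefSeq 19 protein-coding accessions, against 10 rows here. Of the 28 transcripts, 12 end within 50 bases of the 3′ end of their gene's row. Within a gene, tags from transcripts with a shared end cannot be told apart. Gata2 is an example, with an upstream start 4773 bases before the start of its row and a shared 3′ end. The 250 bases before each RefSeq start (GRCm38.p6) are shown because these transcripts part at their starts, with CCAAT boxes in capitals.
Gata2 upstream start: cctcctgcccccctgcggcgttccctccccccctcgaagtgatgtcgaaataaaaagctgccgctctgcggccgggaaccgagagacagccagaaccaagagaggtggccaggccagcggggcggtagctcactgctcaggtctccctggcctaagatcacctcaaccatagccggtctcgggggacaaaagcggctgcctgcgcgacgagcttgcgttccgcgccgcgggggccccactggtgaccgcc
Gata2 start of the row: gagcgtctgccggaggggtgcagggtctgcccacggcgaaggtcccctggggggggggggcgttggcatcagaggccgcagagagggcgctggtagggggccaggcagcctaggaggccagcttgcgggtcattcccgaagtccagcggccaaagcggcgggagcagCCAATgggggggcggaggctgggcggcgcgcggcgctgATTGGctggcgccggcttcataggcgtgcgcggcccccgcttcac
The windows are chr6:88193641-88193890 and chr6:88198414-88198663 on the plus strand. The letters CCAAT, searched on both strands, occurred 2 times in the window at the start of the row and were not in the upstream window, and 33.8% of 32817 RefSeq windows hold them. Neither window held AGATAA, a sequence bound by GATA factors, searched on both strands and found in 9.99% of windows. Other sequences bound by GATA factors were not searched.

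Gata1 has 3 GENCODE transcripts, of which 1 shares the 3′ end of its row. The row runs over chrX:7959260-7967910 on the minus strand, and the window before its start, chrX:7967911-7968160, is printed for its motif search.
Gata1 start of the row: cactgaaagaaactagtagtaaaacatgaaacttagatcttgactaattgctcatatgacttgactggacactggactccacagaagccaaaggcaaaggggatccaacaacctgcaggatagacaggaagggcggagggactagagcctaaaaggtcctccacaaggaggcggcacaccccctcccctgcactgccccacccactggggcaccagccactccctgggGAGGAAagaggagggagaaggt
Capitals mark GAGGAA, a core bound by PU.1 and other ETS factors, found on either strand in 23.3% of windows. AGATAA and CCAAT were not among the letters of this window, nor GAGGAA among those of the Gata2 windows. TATAAA on the gene strand and the C/EBP palindrome TTGCGCAA, held by 7.60% and 0.165% of all windows, were in none of these 3.

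For Cebpd the end of the row and the annotation differ. The row ends at chr16:15889545, and the GENCODE transcript runs 1486 bases further, so tags from that further end would fall in no row of this gene. The share of Cebpd tags there was not tested. In addition, the last 319 bases of Cebpd overlap the row of Spidr on the opposite strand, which had 7 reads against 90 for Cebpd. No source used here says whether counting used strand, so reads in the overlap cannot be told apart. For the other 9 members the farthest annotated 3′ end lay at most 4 bases beyond the row, and no other row overlapped theirs.

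Relatives and partners of the members, pooled with other regulators of myeloid fate, gave a scale for these levels. Of these 46 related regulators, 30 had an RPKM of at least 1, against 31.0% of all genes. The median of all 46 was 2.09. None exceeded Cebpb or Spi1, 2 (Ets2 and Id1) exceeded Gata1 and 12 exceeded Gata2. Among 18 of them grouped as myeloid lineage regulators, 13 passed 1 and the middle value was 4.96. Rara, the retinoic acid receptor alpha of granulocyte differentiation, had an RPKM of 29.3 (28.0 to 30.7), close to Gata1. The core-binding factor genes Runx2, Runx3 and Cbfb had 18.2, 17.8 and 16.0. Gfi1b, a repressor that works with GATA-1 in erythroid and megakaryocytic cells, had 14.0, and its paralogue Gfi1, of neutrophil maturation, 0.536. Both were named after their values were seen, as was Xbp1, a factor that eosinophil progenitors require, at 7.26.

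Genes with known sites for these factors were mostly abundant. Of 10 such granulocyte genes, 8 were above 1, against 31.0% of all genes, and the median of all 10 was 49.0. The list overlaps the cell type markers below. Ccr3, Il5ra, Prg2 and Epx are also eosinophil markers there, Csf1r a macrophage marker and Csf3r a neutrophil marker. Csf2ra, a receptor chain gene whose human promoter is bound by PU.1 and C/EBP factors, had an RPKM of 525 (516 to 533) and Csf2rb, the shared beta chain, 68.4. Ccr3, the eotaxin receptor, had 155, and Prg2, the major basic protein gene with GATA and C/EBP sites in its human promoter, 74.3 (70.0 to 78.7). Below 1 were Epx at 0.265 and Csf3r, the neutrophil growth factor receptor, at 0.110 from 9 reads, both named after their values were seen.

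Markers of other cells that share these factors were uneven, and their part in the members' levels was not tested. Of the 7 eosinophil markers 6 were above an RPKM of 1, against 31.0% of all genes, and the median of all 7 was 75.6. These 6 were Ccr3 at 155, Adgre1 at 109, Siglecf at 77.9, Il1rl1 at 75.6, Prg2 at 74.3 and Il5ra at 18.6. The remaining marker, Epx, had 0.265. Of the 10 mast cell and basophil markers, which go with Gata2, only Hdc reached 1, at 14.5, and 5 were listed at 0, among them Fcer1a, Ms4a2 and Tpsb2. The next were Cpa3 at 0.319, Mcpt8 at 0.166 and Kit at 0.0800 from 5 reads. Of the 10 erythroid and megakaryocyte markers, which go with Gata1 and Zfpm1, 5 reached an RPKM of 1. Gp1bb had 99.5, Itga2b 19.1, Ppbp 7.52 and Pf4 4.52, all genes of megakaryocytes and platelets. The fifth was Alas2, the erythroid enzyme of heme synthesis, at 2.82 from 119 reads. Gp9 and Ermap were listed at 0, and the erythroid factor Klf1, chosen after its value was seen, had 0.0457 from 2 reads.

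Of the 8 neutrophil markers, which go with Cebpe and Cebpa, 2 reached an RPKM of 1, S100a9 at 23.9 and S100a8 at 10.2. The granule genes Ltf and Camp, known to depend on C/EBP epsilon in neutrophils, had 0.908 and 0.232, and Elane and Mpo were listed at 0. Of the 8 macrophage and monocyte markers, which go with Spi1 and Cebpb, 7 reached 1, led by Csf1r at 41.0 and C1qb at 37.9, and Mertk was listed at 0. All 7 epithelial markers reached 1, with a median of 10.1 and Epcam at 89.3. Of the 8 lymphoid markers, which go with Gata3 and Id2, 3 reached 1, led by Thy1 at 10.6, with Rora and Tbx21 listed at 0. Of the 6 B cell markers, 1 did, Cd79b at 1.15, whereas 31.0% of all genes did. The summed RPKM of these lists was 15.1 for mast cells and basophils, 134 for erythroid cells and megakaryocytes, 35.4 for neutrophils and 103 for macrophages and monocytes. It was 194 for epithelium, 14.1 for lymphoid cells and 2.63 for B cells, against 511 for eosinophils. The lists differ in size, so these sums are not shares of cells. Whether each marker, Adgre1 and Il1rl1 among them, was particular to its cell type was not tested.

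**Figure D5:**
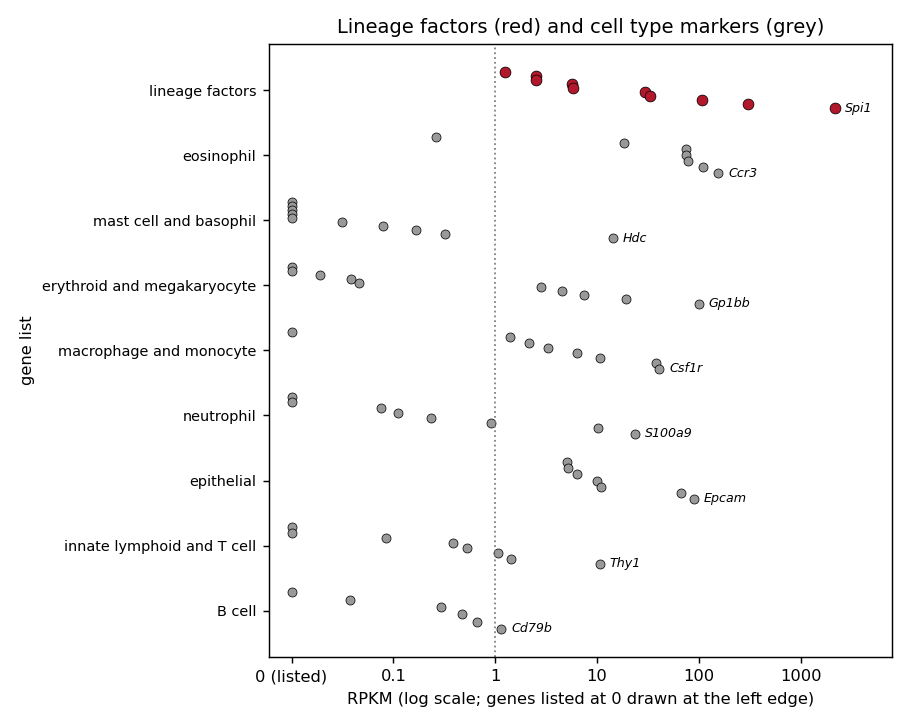
RPKM on a log axis of the 10 lineage factors (red) and of the marker genes of each cell type (grey), with the highest gene of each row named, genes listed at 0 at the left edge and a dotted line at 1. Of the mast cell and basophil markers only Hdc lies right of the line, while all epithelial markers do.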

How the data were processed

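The deposited table holds 31295 RefSeq transcript rows with a read total and an RPKM from the authors, per the file headers, which do not mention a mean. Per the submitters' processing notes, STAR 2.4.2a and DESeq were used with mm10; no source used here gives their roles, the counter, the annotation or the lengths. All read totals times 6 were whole within 0.0001, so they are taken as means over 6 libraries. Coordinates are 1-based as in the table. Current gene symbols came from RefSeq (GRCm38.p6) for 30730 rows by accession, 402 by symbol and 85 by synonym, while 78 kept their own. The row with the most reads stood for each of 23456 genes, which held 7692387 reads, 43.8% of the depth of 17556033. A gene with 0 reads has an upper limit of 3 reads, or 0.390 RPM.

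Transcript lengths were taken from GENCODE M21 exons with the outer ends moved to those of the row. Library depths were the fullest windows of 0.002% width among depths implied by rows with 1 read; the next fullest window held 14. Of 870 rows with 2 reads, 76.6% matched a pair of depths within 0.01%, as a mean of RPKM over libraries gives. Lengths of the remaining rows may be wrong; Cebpa, Cebpb and Cebpd have no introns. All planned values are descriptions, since the design has no contrast. Members and lists were chosen with earlier results of these data known. Related lists name the 4 highest genes and up to 3 listed at 0, and exceptions are marked. Promoter windows were found for 6 of the 10 members in the RefSeq table. Computation used scipy 1.17.1, numpy 2.4.6 and pandas 2.3.3 under Python 3.11.15, with figures from matplotlib 3.10.9.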

Additional observations from a re-analysis of the deposited data

How the results depend on the processing

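The number of members at an RPKM of 1 or more stayed 10 at a minimum of 0.5, on RPM, on RPKM rescaled to a sum of 1000000 and with the row of highest RPKM, and was 7 at a minimum of 5. The share of all genes was counted only at an RPKM of 1, where it was 31.0%. The counts at the other settings therefore have no background beside them. Without Trib1 and Id2 the median RPKM was 5.78. On RPM the median member stood above 91.6% of genes in place of 94.3%. The share held by Cebpb among the 7 genes listed as C/EBP family was 90.1% of reads in place of 93.2% of RPKM. That of Gata1 among Gata1 and Gata2 was 78.4% in place of 83.9%. Weighting libraries by depth, an alternative chosen after the data were seen, gave 91.8% and 86.1%. It moved 4 members beyond their counting intervals: Cebpb to an RPKM of 263, Trib1 to 121, Gata1 to 33.4 and Spi1 to 2275. The move of Spi1 was 1.04-fold, past a narrow interval, and its ratio of reads to RPKM stood above 52.9% of genes, near the middle. These values also rest on inferred transcript lengths, which may be wrong for genes with introns, here Trib1, Gata1 and Spi1. No paired analysis was possible because the table has 1 pooled value per gene, so replicates could not be left out either.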
